A study of Mus musculus with 6 samples.

Results

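The glucocorticoid receptor gene and 7 genes that glucocorticoids are known to induce were described in whole kidney of B6 (C57BL/6) and BALBc (BALB/c) mice, which are inbred laboratory strains. The genes were Nr3c1, which encodes the receptor, and Fkbp5, Tsc22d3, Sgk1, Klf9, Zbtb16, Errfi1 and Pdk4. They were chosen by symbol from 23282 rows of gene values, and all 8 were found, each on a single row. Each strain was represented by 3 kidney libraries, and the design text counts 3 mice per strain. The labels name no glucocorticoid or other treatment, and no age, sex, time of day or hormone measurement. The series asks how bone marrow progenitors and IL-2 signalling shape strain differences of kidney innate lymphoid cells, and the libraries give the background of the whole organ.

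Values are CPM, which scale the reads of a gene by its library, and libraries held between 8310798 and 10416332 reads. They came from a Lexogen QuantSeq kit, which sequences mainly the 3′ ends of polyadenylated transcripts. A gene's value therefore does not tell which of its promoters was used. Folds are BALB/c minus B6 on the log2(CPM + 1) scale, so a positive fold means a higher level in BALB/c. A gene was called when limma's test, adjusted over the 13317 genes that passed a filter on low values, gave an adjusted p under 0.05. All 8 genes passed that filter. Over all genes tested 9.09% were called, 4.17% higher and 4.93% lower in BALB/c, and for 25.4% the library values of the strains did not overlap. Of the folds over all genes tested 49.6% were negative. The 8 genes and the gene lists set beside these shares were chosen with earlier results of these data known. The kidney tubule genes Umod and Slc34a1 stood at means of 2079 and 1969 CPM in B6 and 1745 and 1666 CPM in BALB/c. Xist had between 1035 and 1963 reads in each library and the Y-linked gene Ddx3y at most 8.

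Glucocorticoids are steroid hormones of the adrenal cortex. Their receptor rests in the cytoplasm in a complex with HSP90 and co-chaperones, and on binding hormone it moves to the nucleus, binds glucocorticoid response elements in DNA and changes transcription. In the kidney the related mineralocorticoid receptor binds the same hormones, and the enzyme encoded by Hsd11b2 inactivates them in aldosterone-sensitive cells. Fkbp5, Tsc22d3, Zbtb16, Klf9 and Sgk1 are widely used as readouts of receptor activity, and each of them also answers to other signals.

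Promoter sequence was available for 6 of the 8 genes in the RefSeq table of build GRCm38.p6, with 14 windows in all because several genes have more than 1 start site. Zbtb16 and Nr3c1 had no entry. Each window held 250 bases before and 50 after a start site, and 5 motifs were searched on both strands. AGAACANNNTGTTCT, the palindromic form of the glucocorticoid response element, occurred in 3 of 32851 windows (0.00913%), and 1 of these 3 was an Sgk1 window. A relaxed form, GNACANNNTGTNC, occurred in 0.475% of windows and, among the 14 windows here, in that same Sgk1 window. The single arm AGAACA lies within the palindrome and occurred in 19% of windows, of which 4 belonged to Sgk1 or Tsc22d3. The E-box CACGTG, bound by clock and other helix-loop-helix proteins, occurred in 7.15% of windows, among them 1 of Sgk1, where it overlaps an arm, and the Fkbp5 window. The cAMP response element TGACGTCA occurred in 1.79% of windows and in 1 of Errfi1. The 250 bases before the start site are shown for the Sgk1 window with the palindrome, for Fkbp5, and for Klf9 and Errfi1, the called genes that have an entry. Capitals mark every match to the 5 motifs, and the Klf9 stretch holds none.
Sgk1 (chr10:21993640-21993889, plus strand): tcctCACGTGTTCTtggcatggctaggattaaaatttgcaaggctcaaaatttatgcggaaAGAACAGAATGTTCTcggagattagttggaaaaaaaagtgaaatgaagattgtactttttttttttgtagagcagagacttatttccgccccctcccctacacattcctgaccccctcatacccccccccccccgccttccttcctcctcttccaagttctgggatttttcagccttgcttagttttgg
Fkbp5 (chr17:28486150-28486399, minus strand): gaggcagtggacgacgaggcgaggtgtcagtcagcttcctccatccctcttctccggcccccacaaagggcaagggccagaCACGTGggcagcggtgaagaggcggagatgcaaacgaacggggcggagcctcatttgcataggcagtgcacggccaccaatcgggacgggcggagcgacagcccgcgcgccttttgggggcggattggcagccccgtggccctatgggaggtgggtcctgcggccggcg
Klf9 (chr19:23140976-23141225, plus strand): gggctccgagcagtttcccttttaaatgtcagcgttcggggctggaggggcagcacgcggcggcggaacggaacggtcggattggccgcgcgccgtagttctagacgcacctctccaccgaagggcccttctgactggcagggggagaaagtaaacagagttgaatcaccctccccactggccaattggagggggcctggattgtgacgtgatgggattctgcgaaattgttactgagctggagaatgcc
Errfi1 (chr4:150854820-150855069, plus strand): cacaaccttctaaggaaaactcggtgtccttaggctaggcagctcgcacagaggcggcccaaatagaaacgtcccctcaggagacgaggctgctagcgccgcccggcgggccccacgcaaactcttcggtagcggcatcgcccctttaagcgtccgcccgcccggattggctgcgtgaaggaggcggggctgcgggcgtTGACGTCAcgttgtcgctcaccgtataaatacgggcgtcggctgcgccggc
In the Sgk1 stretch the palindrome reads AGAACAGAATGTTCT and begins 189 bases before the start site. These matches are letters in the reference sequence of B6, and no binding was measured. Sequence outside the windows was not searched, so a stretch with no match does not show that a gene lacks such elements.

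Of the 8 genes, 3 were higher in BALB/c and 0 were lower, against the 9.09% of all tested genes called in either direction. Those higher were Zbtb16, Klf9 and Errfi1. Fkbp5, Tsc22d3 and Sgk1 had negative folds that did not pass the test, and Nr3c1 and Pdk4 had folds of 0.06 and 0.16 with limma adjusted p of 0.837 and 0.862. The strains' library values did not overlap for 4 of the 8 genes, Zbtb16, Klf9, Errfi1 and Fkbp5, where 25.4% of all tested genes behaved so. The median fold of the 8 genes was 0.11, beside 0.002 over all genes tested. The exons of none of the 8 (0) overlap those of another gene, and 0 share words of their 3′ end with another transcript. Each value here is a share of the reads from whole kidney RNA, so fewer cells of a type and less RNA per cell cannot be told apart.

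**Figure D1:**
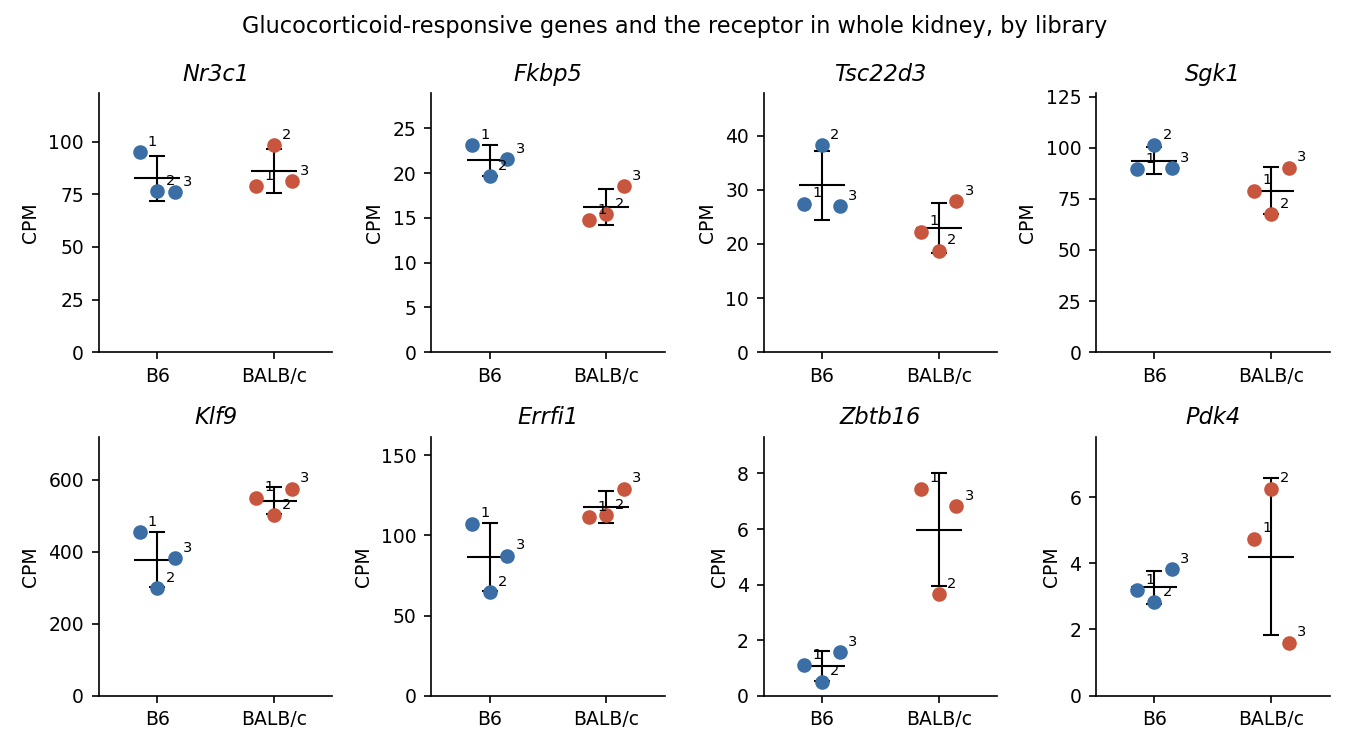
CPM of each of the 8 genes (vertical axes, linear, each starting at 0) in the 3 B6 and 3 BALB/c libraries, with replicate numbers beside the points; bars are the mean ± SD (n = 3). Zbtb16, Klf9 and Errfi1 lie higher in every BALB/c library than in any B6 library, Fkbp5 lies lower in every BALB/c library, and the other 4 genes overlap.

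**Figure D2:**
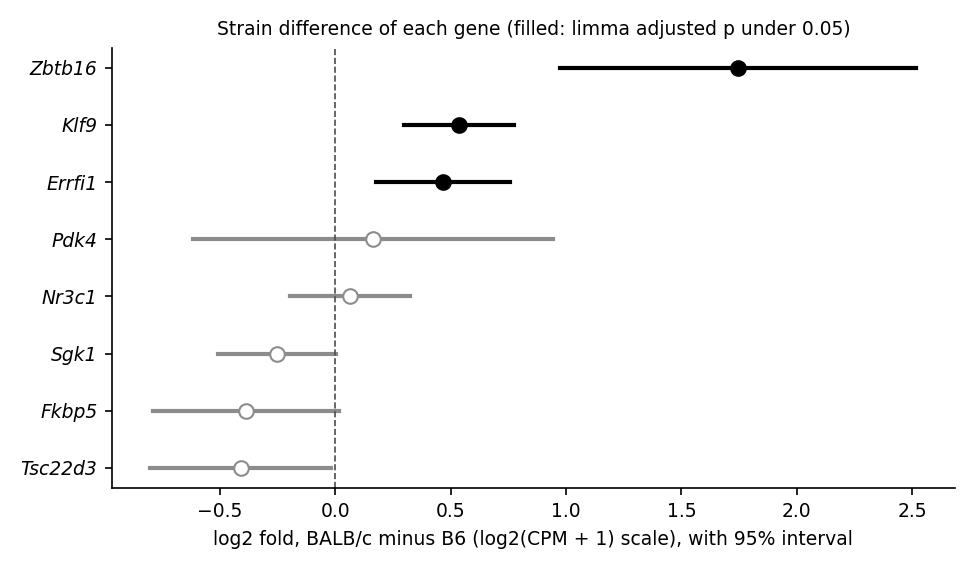
log2 fold of each gene (horizontal axis, BALB/c minus B6) with its 95% interval from limma; filled points are called. The intervals of Zbtb16, Klf9 and Errfi1 lie above 0, that of Tsc22d3 lies below 0 without passing the adjusted test, and the other 4 include 0.

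The receptor gene Nr3c1 (chromosome 18) stood at 94.9, 76.4 and 76.1 CPM in B6 replicates 1, 2 and 3 and at 78.9, 98.3 and 81.3 CPM in BALB/c replicates 1, 2 and 3. The strains overlapped throughout, and in each of them 1 library stood above the other two. The fold was 0.06 ± 0.13 (SE), with a 95% interval from -0.20 to 0.32, so a difference in receptor transcript of more than 1.25-fold upward lies outside the interval. Without BALB/c replicate 2 the fold was -0.03. Transcripts of the mineralocorticoid receptor gene Nr3c2 were scarce, at a mean of 1.55 ± 0.406 CPM in the B6 strain against 1.35 ± 1.05 CPM in BALB/c (SD, n = 3).

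Of 15 genes of the chaperone complex that holds the receptor ready for hormone, all tested, 7 fell in BALB/c, 0 rose and 8 were not called, so that 46.7% were called where 4.93% of all tested genes were called lower, and 14 of the 15 folds were negative, with a median of -0.36. Fkbp4, which encodes FKBP52, the co-chaperone that replaces FKBP51 on the hormone-bound receptor, went from 210.7 ± 19.8 CPM to 145.3 ± 5.88 CPM (SD, n = 3), a fold of -0.53 ± 0.10 (SE, limma adjusted p = 0.00101). The HSP90 genes Hsp90aa1 and Hsp90ab1 had folds of -0.50 and -0.41, Stip1, which encodes the adaptor HOP, had -0.76, and St13, which encodes the HSC70-interacting protein HIP, had -0.41 (limma adjusted p = 0.00278, 0.00272, 0.00279 and 0.00535). Hspa8, the constitutive HSC70 gene, had the lowest fold of the list, -1.50 ± 0.11, but 82.4% of the words of its 3′ end are found in other transcripts. Dnaja1, an HSP40 gene with a fold of -0.40, shares all of its 3′ end words with transcripts of other genes and lost its call without any library other than B6 replicate 2 (adjusted p up to 0.129). Ptges3, which encodes p23, had -0.19 (limma adjusted p = 0.254) and Dnajb1 -0.36 (0.159). The summed level of the 15 genes lay between 4798 and 5407 CPM in B6 libraries and between 3592 and 3646 CPM in BALB/c libraries. With a variance prior that does not follow the expression level, Hspa8 alone of the 7 kept its call. These proteins also serve many clients other than the receptor.

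**Figure D3:**
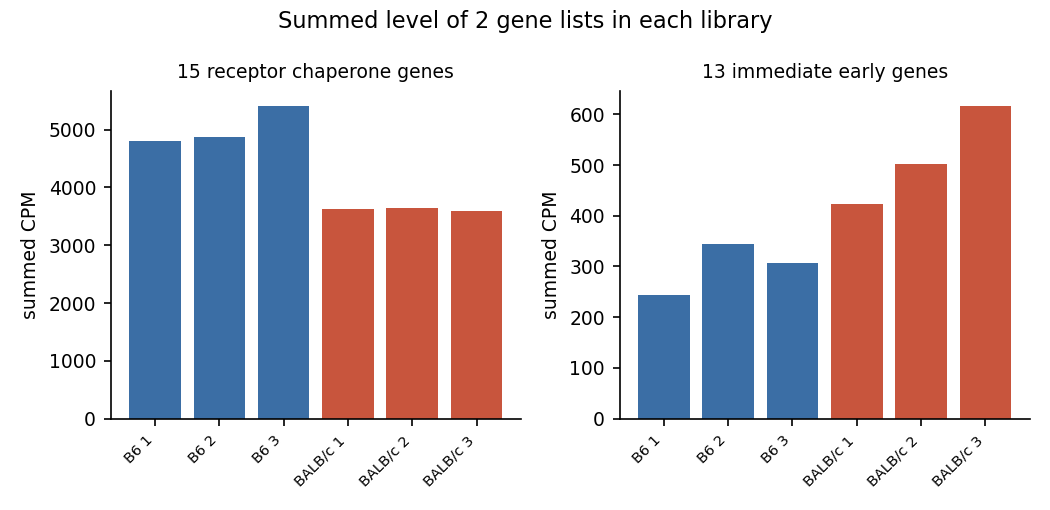
Summed CPM (vertical axes, from 0) of the 15 chaperone genes and of 13 immediate early genes in each library, 1 bar per library. The chaperone sum is lower and the immediate early sum higher in each BALB/c library than in any B6 library.

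None of 12 coregulators that the receptor recruits to chromatin was called by limma (0 in either direction), beside 9.09% of all tested genes. Of the 12 folds 11 were negative, where 49.6% of the folds over all tested genes were. Library values of 2 of the 12, Ep300 and Crebbp, did not overlap and were the lower in BALB/c, beside 25.4% of all tested genes. In limma 1 of the 12 had an unadjusted p under 0.05. That gene, Ep300, a histone acetyltransferase, had a fold of -0.45 ± 0.15 (SE, limma adjusted p = 0.0604).

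Genes that handle the hormone changed in both directions. Of 9 tested members of this list, 2 rose and 2 fell (44.4%, against 9.09% of all genes). Abcb1b, which encodes a P-glycoprotein that exports corticosteroids among other compounds, rose from 24.3 ± 2.08 to 43.9 ± 8.16 CPM, a fold of 0.82 ± 0.16 (limma adjusted p = 0.00187). Its relative Abcb1a had 0.51 (limma adjusted p = 0.114). Exons of Abcb1b and Abcb1a overlap those of Gm5106 and Gm42686. Serpina6, which encodes corticosteroid-binding globulin, stood at 0.440, 0.202 and 0.560 CPM in the B6 libraries and at 3.77, 1.65 and 4.61 CPM in the BALB/c libraries. Its fold was 1.57 ± 0.41 (limma adjusted p = 0.0141), resting on 2 to 5 reads per B6 library. The call ended without BALB/c replicate 1 or 3 (adjusted p = 0.0784 and 0.0884) and in limma-voom (0.0674). Each B6 library of Serpina6 lay below the filter's log2 value of 1, so the gene was tested through its BALB/c libraries alone. H6pd, whose product supplies NADPH to the hormone-activating enzyme 11β-HSD1, fell by 0.60 on the log2 scale (limma adjusted p = 0.00505, but 0.0651 without B6 replicate 1). Akr1d1, a steroid 5β-reductase gene, had -1.16 (limma adjusted p = 0.0187), a call that was lost when B6 replicate 2, B6 replicate 3 or BALB/c replicate 1 was left out (up to 0.102). Hsd11b1 and Hsd11b2, the enzymes that activate and inactivate the hormone, had -0.14 and -0.19 and were not called (limma adjusted p = 0.641 and 0.341). With the prior that does not follow expression, Serpina6 alone of the 4 kept its call.

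Fkbp5 (chromosome 17, 28399094 to 28517527, GRCm38) encodes FKBP51, a co-chaperone that lowers the receptor's affinity for hormone and is itself induced by it. It stood at 23.1, 19.6 and 21.5 CPM in the B6 libraries and at 14.7, 15.4 and 18.5 CPM in the BALB/c libraries. Every BALB/c library was below every B6 library, but the fold of -0.38 ± 0.19 (SE) did not pass the test (limma adjusted p = 0.262), with a 95% interval from -0.79 to 0.02. Fkbp5 and Fkbp4 thus had folds of the same sign, of which the latter alone was called.

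Tsc22d3 (chromosome X, 140539528 to 140600659) encodes GILZ, a leucine zipper protein that carries part of the anti-inflammatory action of glucocorticoids. Its level was 27.4, 38.2 and 26.9 CPM in the B6 libraries and 22.3, 18.8 and 27.9 CPM in the BALB/c libraries. B6 replicate 2 was the highest, and BALB/c replicate 3 lay within the B6 range. The fold was -0.41 ± 0.19 with a 95% interval from -0.80 to -0.02, at an unadjusted p of 0.0409 and a limma adjusted p of 0.206.

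Sgk1 (chromosome 10, 21882184 to 21999903) encodes a kinase that both corticosteroid receptors induce and that keeps the epithelial sodium channel ENaC at the cell surface by restraining the ubiquitin ligase NEDD4-2. It stood at 89.5, 101.2 and 90.01 CPM in the B6 libraries and at 78.9, 67.5 and 90.3 CPM in the BALB/c libraries. The groups overlapped through BALB/c replicate 3. The fold was -0.25 ± 0.12 with a 95% interval from -0.51 to 0.004 (limma adjusted p = 0.242). The Sgk1 window shown above, with its palindromic response element, thus belongs to a gene for which no difference was called. Of 17 genes of the sodium channel pathway, 0 rose and 1 fell, 5.88% called against 9.09% of all genes, and 14 folds were negative. The gene that fell was the thiazide-sensitive cotransporter gene Slc12a3, by 0.53 on the log2 scale (limma adjusted p = 8.47e-04). The ENaC subunit genes Scnn1a, Scnn1b and Scnn1g had folds of -0.31, -0.43 and 0.001 (limma adjusted p = 0.360, 0.144 and 0.999). With the prior that does not follow expression, Slc12a3 was not called (0.0882).

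In Tsc22d3 and Sgk1 the same libraries were at the extremes, with B6 replicate 2 the highest B6 library and BALB/c replicate 2 the lowest of all. B6 replicate 2 was the lowest library for Klf9, Errfi1 and Zbtb16. In that library the summed markers of the proximal tubule were also the lowest (17406 CPM, against 18655 to 23323 CPM in the other 5), and those of the loop of Henle (4534 CPM, against 3205 to 3701 CPM) and of the distal tubule and collecting duct (1685 CPM, against 1324 to 1379 CPM) were the highest. The part of kidney region in these values was not tested.

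Klf9 (chromosome 19, 23141226 to 23168134) encodes a Krüppel-like zinc finger repressor that answers to glucocorticoids and thyroid hormone. Its level was 454, 299.9 and 382 CPM in the B6 libraries and 551, 502 and 575 CPM in the BALB/c libraries. The lowest BALB/c library was above the highest B6 library. Mean levels differed by 1.43-fold, and the log2 fold was 0.54 ± 0.11 (SE, limma adjusted p = 0.00305), resting on 10504 and 15689 reads. The call held with each library left out in turn, with folds between 0.38 and 0.68 and adjusted p up to 0.0258. It ended with a variance prior that does not follow expression (adjusted p = 0.169), under which 3.7% of all tested genes and 1 of the 8 genes, Zbtb16, were called.

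Zbtb16 (chromosome 9, 48654297 to 48836222) encodes PLZF, a BTB zinc finger transcription factor that glucocorticoids induce strongly in many cells and that also marks natural killer T cells and innate lymphoid precursors. It was scarce, with 1.10, 0.504 and 1.57 CPM (10, 5 and 14 reads) in B6 libraries and 7.45, 3.66 and 6.81 CPM (77, 31 and 68 reads) in BALB/c libraries. No library of one strain came near the other strain's range. B6 replicate 2 lay below the filter's log2 value of 1, so the gene reached the required 3 libraries only with BALB/c libraries. The fold was 1.75 ± 0.37, larger in size than those of 99.2% of all tested genes (limma adjusted p = 0.00303), and means differed by 5.64-fold on the CPM scale. Because of the low level the fold depended on the offset, with 2.28 at a pseudocount of 0.25 CPM and 0.84 at 5 CPM. The call held under the other settings in which the gene was tested, with adjusted p up to 0.0310.
Of 14 markers of T, NKT and innate lymphoid cells, 4 passed the filter, 0 were called higher and 1 lower, Cd8a, by limma (9.09% of all tested genes were called), and 3 of the 4 had an unadjusted p under 0.05. The library values of the pan-T gene Thy1 did not overlap and were the higher in BALB/c (54 and 118 reads), with a fold of 0.76 that was not called (limma adjusted p = 0.216). Of the 10 markers below the filter, mean CPM was higher in BALB/c for 6, Cd3g, Cd4, Klrb1c, Il1rl1, Cd2 and Tbx21, and lower for 4, Cd3e, Il7r, Ncr1 and Lck. These had few reads, such as 10 over the B6 libraries against 30 for Il1rl1, 1 against 13 for Tbx21 and 12 against 6 for Cd3e. The part of lymphoid cells in the Zbtb16 difference was not tested.

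Errfi1 (chromosome 4, 150853919 to 150868892) encodes MIG6, an inhibitor of the EGF receptor that glucocorticoids and growth factors induce. It stood at 107.3, 64.7 and 87.3 CPM in the B6 libraries and at 111.4, 112.8 and 129.1 CPM in the BALB/c libraries. The strains did not overlap, although B6 replicate 1 came close to the BALB/c range. Means differed by 1.36-fold, and the log2 fold was 0.47 ± 0.14 (limma adjusted p = 0.0377). The call depended on single libraries. It ended without B6 replicate 2 (fold 0.28, adjusted p = 0.193), B6 replicate 3 (0.0638), BALB/c replicate 1 (0.0810), BALB/c replicate 2 (0.0732) or BALB/c replicate 3 (0.134). It also ended with no filter beyond 1 read (0.134) and with the prior that does not follow expression (0.277). In the EGF receptor pathway 9 of 14 genes were tested, of which 0 rose and 2 fell (22.2%, against 9.09%). Egfr, the receptor itself, went from 21.7 ± 4.84 to 9.44 ± 2.09 CPM (SD, n = 3), a fold of -1.12 ± 0.24 (limma adjusted p = 0.00286), and kept its call under all 16 alternatives. Egf, whose exons overlap those of 6330410L21Rik, fell by 0.38 (limma adjusted p = 0.00745) and was not called with the prior that does not follow expression (0.157). Receptor and inhibitor transcripts thus differed in opposite directions.

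**Figure D4:**
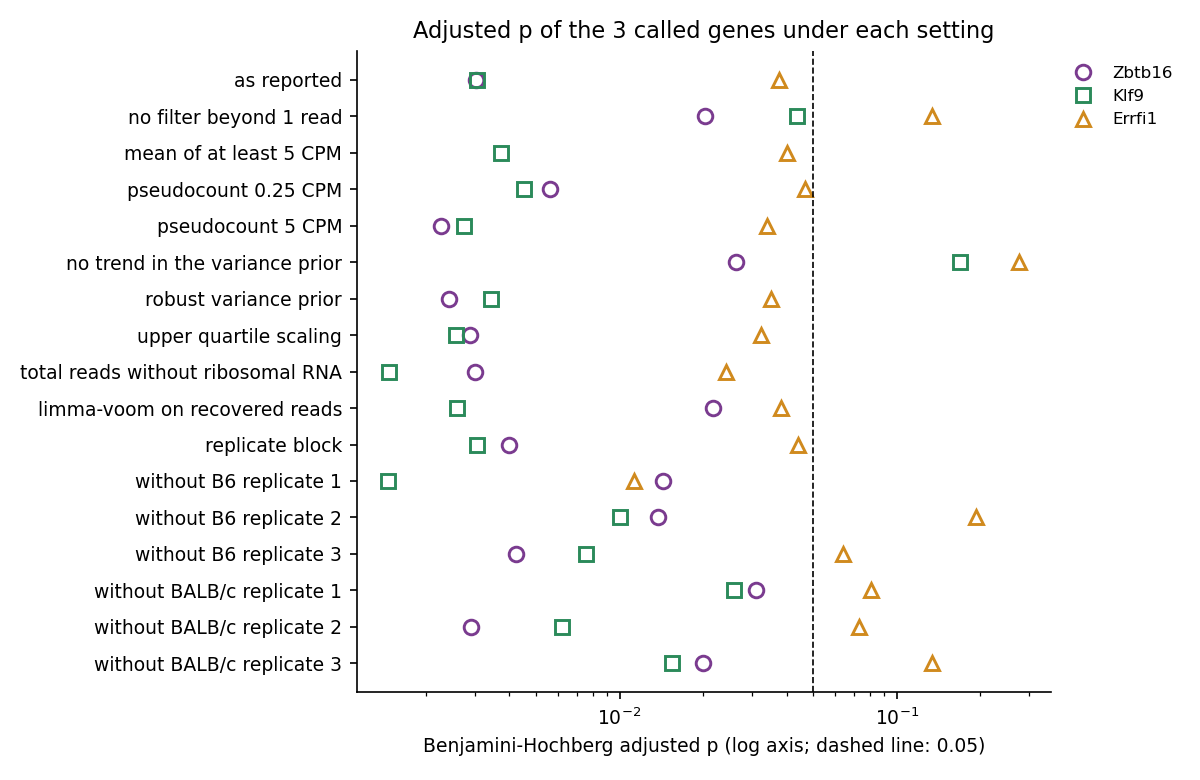
Benjamini-Hochberg adjusted p (horizontal log axis, dashed line at 0.05) of Zbtb16, Klf9 and Errfi1 as reported and under each of 16 alternative settings. Zbtb16 stays left of the line wherever it was tested, Klf9 crosses it with no trend in the variance prior, and Errfi1 crosses it in 7 settings.

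Pdk4 (chromosome 6, 5483351 to 5496309) encodes a kinase that switches off pyruvate dehydrogenase and is induced by fasting, by PPAR-alpha and by glucocorticoids. Its level was 3.19, 2.82 and 3.81 CPM in the B6 libraries and 4.74, 6.25 and 1.60 CPM in the BALB/c libraries. The BALB/c libraries held both the highest and the lowest value, a 3.90-fold range among mice of 1 strain. The fold was 0.16 ± 0.38 with a wide 95% interval from -0.62 to 0.94, and without BALB/c replicate 2 it was -0.14. Of 10 tested genes of the pyruvate dehydrogenase axis 0 were called by limma, beside 9.09% of all tested genes, and 3 had an unadjusted p under 0.05. The other kinase genes Pdk1, Pdk2 and Pdk3 had folds of -0.30, 0.26 and -0.36 (limma adjusted p = 0.408, 0.173 and 0.225).

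Genes of PPAR-alpha and fasting, the other inputs to Pdk4, were called in both directions. Of 15 tested, 5 rose and 3 fell (53.3%, against 9.09%), with a median fold of 0.05. The thioesterase gene Acot2 rose by 0.64 (limma adjusted p = 6.40e-04). The fatty acid hydroxylase genes Cyp4a10 and Cyp4a14 and the thioesterase gene Acot1 also rose, by 0.54, 0.38 and 0.49, and the dehydrogenase gene Acadm and the lipid droplet gene Plin2 fell, with folds of -0.59 and -0.75. Of these 5, Cyp4a14 lost its call without BALB/c replicate 1 (limma adjusted p = 0.160), Acot1 without B6 replicate 3 or BALB/c replicate 1 (up to 0.0794) and Plin2 without B6 replicate 3 or BALB/c replicate 3 (up to 0.0715). With the prior that does not follow expression, 1 of the 8 called genes of this list kept its call.

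A broader list of 28 other genes known to be induced by glucocorticoids had 27 tested members, of which 7 rose and 3 fell. That is 37.0% called against 9.09% of all genes, with a median fold of 0.10 and 16 positive and 11 negative folds. The genes that rose were Angptl4, Cdkn1a, Cebpd, Txnip, Rgs2, Cdkn1c and Nfkbia, and those that fell were Glul, Pck1 and Arrdc3. Angptl4, a lipoprotein lipase inhibitor gene, went from 4.01 ± 0.186 to 24.7 ± 11.1 CPM (SD, n = 3), a fold of 2.25 ± 0.30 (limma adjusted p = 1.15e-05). Glul, which encodes glutamine synthetase, went from 820.7 ± 163 to 405.7 ± 51.9 CPM, a fold of -1.0 ± 0.12 (limma adjusted p = 1.88e-06). The transcription factor gene Cebpd rose by 0.89 and the gluconeogenic enzyme gene Pck1 fell by 0.57 (limma adjusted p = 8.55e-04 and 3.39e-04). Exons of Glul, Cdkn1a, Txnip, Cebpd and Cdkn1c overlap those of other annotated genes, and no source says that strand was used in counting. With the prior that does not follow expression, 3 of the 10 kept their call, Glul, Cdkn1a and Angptl4. Arrdc3 lost its call without any library other than BALB/c replicate 2 (adjusted p up to 0.0971), Nfkbia when B6 replicate 1, B6 replicate 3, BALB/c replicate 2 or BALB/c replicate 3 was left out (up to 0.0968) and with the replicate number as a block (0.0613), and Cdkn1c without BALB/c replicate 2 (0.0732). Per1, Klf15 and Ddit4, which are commonly used as receptor targets and were named here after their values were seen, had folds of 0.35, -0.01 and 0.10 and were not called (limma adjusted p = 0.624, 0.984 and 0.839).

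**Figure D5:**
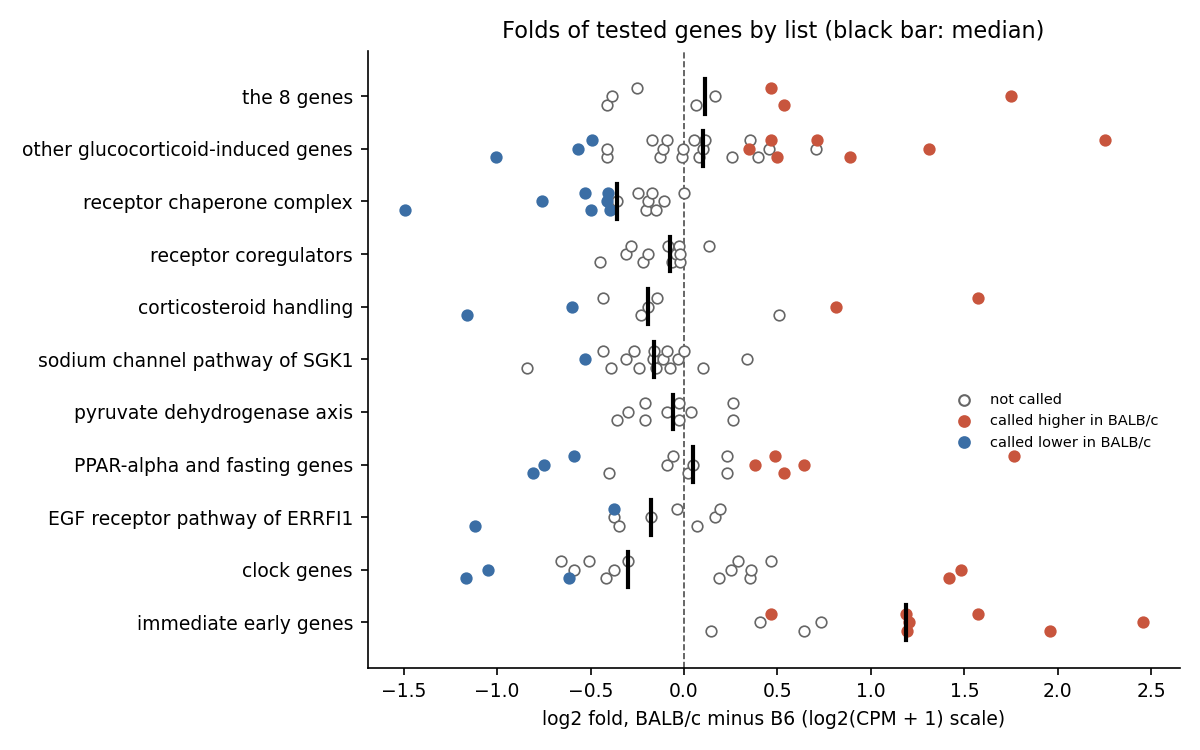
log2 fold (horizontal axis, BALB/c minus B6) of each tested gene in the 8 genes and 10 gene lists, 1 circle per gene. Filled circles are called and black bars are list medians. Called genes lie on the left in the chaperone list, on the right in the immediate early list, and on both sides in the other glucocorticoid-induced genes.

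Several of these genes also answer to growth factor and stress signals within minutes, or follow the daily cycle, and genes of both kinds differed between the strains. Of 11 tested immediate early genes 7 rose and 0 fell (63.6%, against 9.09%), with a median fold of 1.19. Their summed level lay between 243 and 344 CPM in B6, and between 423 and 616 CPM in BALB/c, so it did not overlap. In B6 the sum was lowest in replicate 1, the B6 library with the highest Klf9 and Errfi1. In BALB/c it was highest in replicate 3, the library with the highest Klf9 and Errfi1 of all. Ier3 and Jund made up the largest parts of the sum in B6, with means of 100.9 and 99.9 CPM. Ier3 had a fold of 0.14 and was not called (limma adjusted p = 0.654). Jun and Junb had folds of 1.21 and 1.57 (limma adjusted p = 1.40e-05 and 4.34e-05), and Jun, Zfp36, Ier2 and Junb kept their calls with the prior that does not follow expression. Egr1, Fos and Jund were the other 3 that rose; Fos lost its call without B6 replicate 1 (limma adjusted p = 0.0549) and Jund without B6 replicate 1 or BALB/c replicate 3 (up to 0.102). Exons of Jun, Junb, Zfp36 and Jund overlap those of Junos, Prdx2, Gm44710 and Gm11175. Of 17 tested clock genes 2 rose and 3 fell (29.4%). Nr1d1 and Nr1d2, which encode the REV-ERB repressors, had folds of 1.48 and 1.42 (limma adjusted p = 1.52e-04 and 2.56e-04), and Clock had -0.61 (0.00443). Exons of Nr1d1 overlap those of Thra. The clock repressor genes Per2 and Cry1 fell, with folds of -1.17 and -1.05 (limma adjusted p = 0.0334 and 0.0452). The Per2 call was lost without any library other than BALB/c replicate 3 (up to 0.140) and the Cry1 call without any other than BALB/c replicate 2 (up to 0.228). With the prior that does not follow expression, Nr1d1 alone of these 5 kept its call. The summed level of the clock list overlapped between the strains, at 403 to 425 CPM for B6 and 357 to 418 CPM for BALB/c. The part of immediate early activity or of time of day in the differences of Klf9, Errfi1 and Zbtb16 was not tested.

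Markers of tissues that lie next to the kidney were read beside these results. Of 12 adrenal markers 8 had 0 reads in every library, among them the hormone synthesis genes Cyp11b1, Cyp11b2 and Cyp21a1, and Star alone was tested, with a fold of 0.23 (limma adjusted p = 0.790). The adrenal sum lay between 3.41 and 3.92 CPM in B6, and between 2.71 and 7.07 CPM in BALB/c. Of 11 fat markers 4 were tested, of which 0 rose and 1 fell, Pck1, which kidney tubules express, while library values of Lipe did not overlap and were the higher in BALB/c (fold 0.61, limma adjusted p = 0.132). Of the 7 below the filter mean CPM was lower in BALB/c for 5, among them Adipoq with 34 reads over the B6 libraries against 4, and higher for 2, Cidec with 6 against 42 and Cidea with 6 against 16. The fat sum, mostly Pck1, lay between 1548 and 1787 CPM in B6, and between 1026 and 1289 CPM in BALB/c. Of 9 skeletal muscle markers 3 had 0 reads, Ckm, Tnnt3 and Tnnc2, 1 was tested and 0 were called by limma, and 1 had an unadjusted p under 0.05. Their sum lay between 3.36 and 10.2 CPM in B6, and between 1.53 and 3.21 CPM in BALB/c. Among kidney cell types, summed markers of the proximal tubule, mostly Kap, and of the loop of Henle overlapped between the strains. The sums did not overlap for the distal tubule and collecting duct (1350 to 1685 CPM for the B6 libraries and 1324 to 1327 CPM for BALB/c), the endothelium (351 to 377 and 312 to 315 CPM) and podocytes (366 to 423 and 515 to 556 CPM). Against 9.09% of all tested genes called, 1 of the 11 proximal tubule markers rose and 2 fell, and library values did not overlap for 5. Of the distal and collecting duct list 1 rose and 2 fell of 11, of the podocyte list 1 rose and 1 fell of 7, and of the endothelial list 0 of 7 were called by limma, with 3 at an unadjusted p under 0.05. The part of these cell types in the differences of the 8 genes was not tested.

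The genes most like each called gene were those with the smallest root mean square difference of centred log2 values over the 6 libraries. These values hold the strain difference itself, so the nearest genes share it, and shared regulation was not tested. For Zbtb16 the nearest was Serpina6, the corticosteroid-binding globulin gene (0.18), followed by Ifi202b (0.26), an interferon-inducible gene with 0 reads in B6, and Nr1d2 (0.29). Serpina6 and Ifi202b passed the filter through their BALB/c libraries alone. For Klf9 the nearest were Sel1l3 (0.05), Dexi (0.07) and Toe1 (0.07). For Errfi1 the nearest were Sel1l3 (0.05), Klf9 itself (0.07) and Rnf113a2 (0.07). Exons of Dexi and Toe1 overlap those of Ciita and Tesk2, and 76.5% of the words of the 3′ end of Toe1 are found elsewhere. Klf9 and Errfi1 thus had nearly the same profile over the libraries, with B6 replicate 2 lowest, B6 replicate 1 highest in its strain and BALB/c replicate 3 highest of all.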

How the data were processed

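RNA of whole kidney was measured in 6 libraries, 3 of B6 and 3 of BALB/c, grouped by their titles. Per the labels, total RNA came from a Trizol extraction and a Lexogen QuantSeq kit was used. Per the submitters' processing notes, Bowtie2, bedtools and the mouse build mm10 were used; not given in the sources used here are versions, annotation, use of strand and the handling of reads with several alignments. mm10 is the sequence of the B6 strain. The authors deposited log2 values. Raised from that scale and lowered by 1 they sum to between 980188 and 1043599 per library, and 100% of the values of up to 20 reads are whole multiples of 1 step within 0.1 read, so they were read as log2(CPM + 1) with a further factor per library. Each read was worth between 0.0968 and 0.118 CPM. Of 23282 rows, 13317 with a log2 value of at least 1 in at least 3 libraries were tested with limma 3.58.1 in R 4.3.3 (strain as the sole term, variance prior following expression, two-sided, Benjamini-Hochberg over all genes tested, called at an adjusted p under 0.05). The prior contributed 18.4 degrees of freedom beside 4 residual ones, so p-values lean on genes of similar level. Means ± SD are in CPM over 3 libraries. The procedure was tested on simulated data.

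The 8 genes and the gene lists were chosen with earlier results of these data known. Named genes are the 8 genes, called genes and up to 4 further genes of smallest p in each list, and the 3 most similar genes of each called gene; Nr3c2, Scnn1a, Scnn1g, Per1, Klf15, Ddit4, Umod, Slc34a1 and the single marker genes were chosen after their values were seen, and not every gene the rule allows is reported here. GENCODE M21 (GRCm38, the assembly of mm10) gave exon overlaps, and shared 3′ ends came from words of 50 bases taken every 5 bases over the last 300 bases of a transcript. Alternatives covered filters, pseudocounts, variance priors, scalings, limma-voom on recovered reads, the replicate number as a block, and leaving out each library. The labels give the strains the same replicate numbers, but deviations of same-numbered libraries correlated at 0.01, -0.06 and -0.08, so the numbers were not taken to pair them. Libraries of a strain were separate samples, with a chi-square over genes of 7.75 to 16.3 per degree of freedom.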

Additional observations from a re-analysis of the deposited data

How the results depend on the processing

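The 8 genes gave 126 results under 16 alternatives, of which 116 kept their direction and their side of the threshold, 8 lost a call, 0 gained one and 2 changed sign. With no trend in the variance prior limma called 493 genes in place of 1211 (3.7% in place of 9.09%), 1 of the 8 genes in place of 3, 3 of the other glucocorticoid-induced genes in place of 10, 1 chaperone gene in place of 7 and 4 immediate early genes in place of 7. Klf9 (fold 0.54) and Errfi1 (0.47) lost their calls there, and Errfi1 (0.47) also with no filter beyond 1 read; the cause was not tested. Leaving out each library gave between 797 (without BALB/c replicate 1) and 1138 calls, with 806 without B6 replicate 1, between 2 and 3 of the 8 genes, and folds between 0.28 and 0.64 for Errfi1, from -0.034 to 0.17 for Nr3c1 and from -0.14 to 0.60 for Pdk4. Without BALB/c replicate 2 the folds of Nr3c1 and Pdk4 were -0.034 and -0.14. Among 84 other genes that the naming rule covers, Atf3 changed sign (from -0.23 without B6 replicate 1 to 0.79 without B6 replicate 3), and over all alternatives 85 results lost and 14 gained a call. With the replicate number as a block 977 genes were called, and 3 of the 8 genes, 7 chaperone and 7 immediate early genes kept their calls. Of the 10 other glucocorticoid-induced genes 9 kept theirs; Nfkbia lost its call (adjusted p = 0.0613) and Dusp1 gained one (0.0242). Zbtb16 and Pdk4 fall below a mean of 5 CPM and were not tested under that filter. Count models on recovered reads were planned and not run, since the deposited values are logs; limma-voom took their place. Depth limits low genes, among them Zbtb16, Serpina6, Pdk4 and Fos, with as few as 5, 2, 16 and 0 reads in a library.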
